A study of Homo sapiens with 6 samples.

Results

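The nuclear pore and nuclear transport genes were described in 2 human prostate cancer cell lines that had been treated with inhibitors of the chaperone HSP70. Members were the protein-coding genes whose symbol was NUP followed by a number, began with KPNA, KPNB or TNPO, or was IPO or XPO followed by a number or the letter T. This rule, which uses names and no measured value, found 47 genes among 60658 gene identifiers, of which 19687 were protein-coding: 23 nucleoporins, 18 importins and 6 exportins. The lines were C4-2B MDVR, an enzalutamide-resistant derivative of LNCaP-derived C4-2B cells maintained with 20 µM enzalutamide, and CWR22Rv1, a line from a human prostate xenograft that expresses androgen receptor variants. Cells of each line received the vehicle DMSO or 10 µM of an inhibitor of HSP70 ATPase activity, apoptozole (APO) or VER155008 (VER), for 48 h before RNA sequencing. Each of these 6 conditions was 1 library, so no spread between cultures could be estimated and no test was made. In bulk RNA, fewer cells of a type and less RNA per cell cannot be told apart.

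The nuclear pore complex is a channel through the nuclear envelope built from nucleoporins. Outer and inner rings form its scaffold, nucleoporins rich in phenylalanine-glycine (FG) repeats fill its channel, and further nucleoporins form the cytoplasmic filaments and the nuclear basket. Importins carry cargo with nuclear localization signals inward and exportins carry cargo outward, both steered by the GTPase Ran; importin alpha proteins (KPNA) are adaptors that hand cargo to importin beta (KPNB1). In prostate cells the androgen receptor is itself a cargo that enters the nucleus on binding androgen.

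Levels were given as FPKM (fragments scaled to transcript length and to library size), so levels of different genes can be compared. A library held 17603 to 19376 genes above 0.1 FPKM. Relative depth, read from the ratios of low values between libraries, was lowest in C4-2B MDVR with DMSO, set to 1, and highest, at 1.64, in C4-2B MDVR with APO. Transcripts of the mitochondrial chromosome took 14.8% to 16.4% of summed FPKM in the C4-2B MDVR libraries, but 25.7%, 10.4% and 25.7% in CWR22Rv1 with DMSO, APO and VER. The part of that shift in the member values was not tested other than by rescaling. All 8 prostate markers exceeded 1 FPKM in every library, PECAM1 was listed at 0 in every library, and PTPRC was listed at 0 in 5 of 6. The immune marker CD68 was at 2.21, 3.68 and 1.98 FPKM in C4-2B MDVR with DMSO, APO and VER. In CWR22Rv1 it was at 0.62, 0.97 and 0.31 FPKM. Summed endothelial markers were at most 0.294 FPKM in any library. Summed fibroblast markers were 6.91 to 11.1 FPKM in C4-2B MDVR and 17.9 to 31.6 FPKM in CWR22Rv1, mostly LUM in the latter.

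Most members were lower with either inhibitor in both lines. A fold change was taken as the difference of log2(FPKM + 0.1), "rose" and "fell" below mean past 1.2-fold (0.263 on the log2 scale), and genes entered a comparison if any of the 3 libraries of that line had them above 0.1 FPKM. With APO in C4-2B MDVR, 29 of 45 members fell (64.4%) and 3 rose (6.67%), while 35.4% of all 20122 genes compared fell and 37.7% rose (34.5% and 36.2% of protein-coding genes). With VER in C4-2B MDVR, 33 of 45 fell (73.3%) and 2 rose (4.44%), against 34.9% and 35.6% of all genes (34.3% and 34.3% of protein-coding genes). With APO in CWR22Rv1, 23 of 46 fell (50.0%) and 8 rose (17.4%), against 39.2% and 35.6% of all 21608 genes compared (37.5% and 35.8% of protein-coding genes). With values rescaled to the same sum in each library, 17 fell and 11 rose, and the shares of all genes were not computed under that scaling. With VER in CWR22Rv1, 27 of 46 fell (58.7%) and 2 rose (4.35%), against 32.3% and 32.1% of all genes (31.7% and 28.5% of protein-coding genes). The member medians were −0.52, −0.59, −0.26 and −0.33 in that order, and the medians of all genes compared were between −0.01 and 0. KPNA7 is among the 46 members and among those that rose in CWR22Rv1. It was listed at 0 FPKM with DMSO there and passed the filter only through its inhibitor libraries, so it could not have fallen. Without it, 7 of 45 members rose with APO and 1 with VER in CWR22Rv1.

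**Figure D1:**
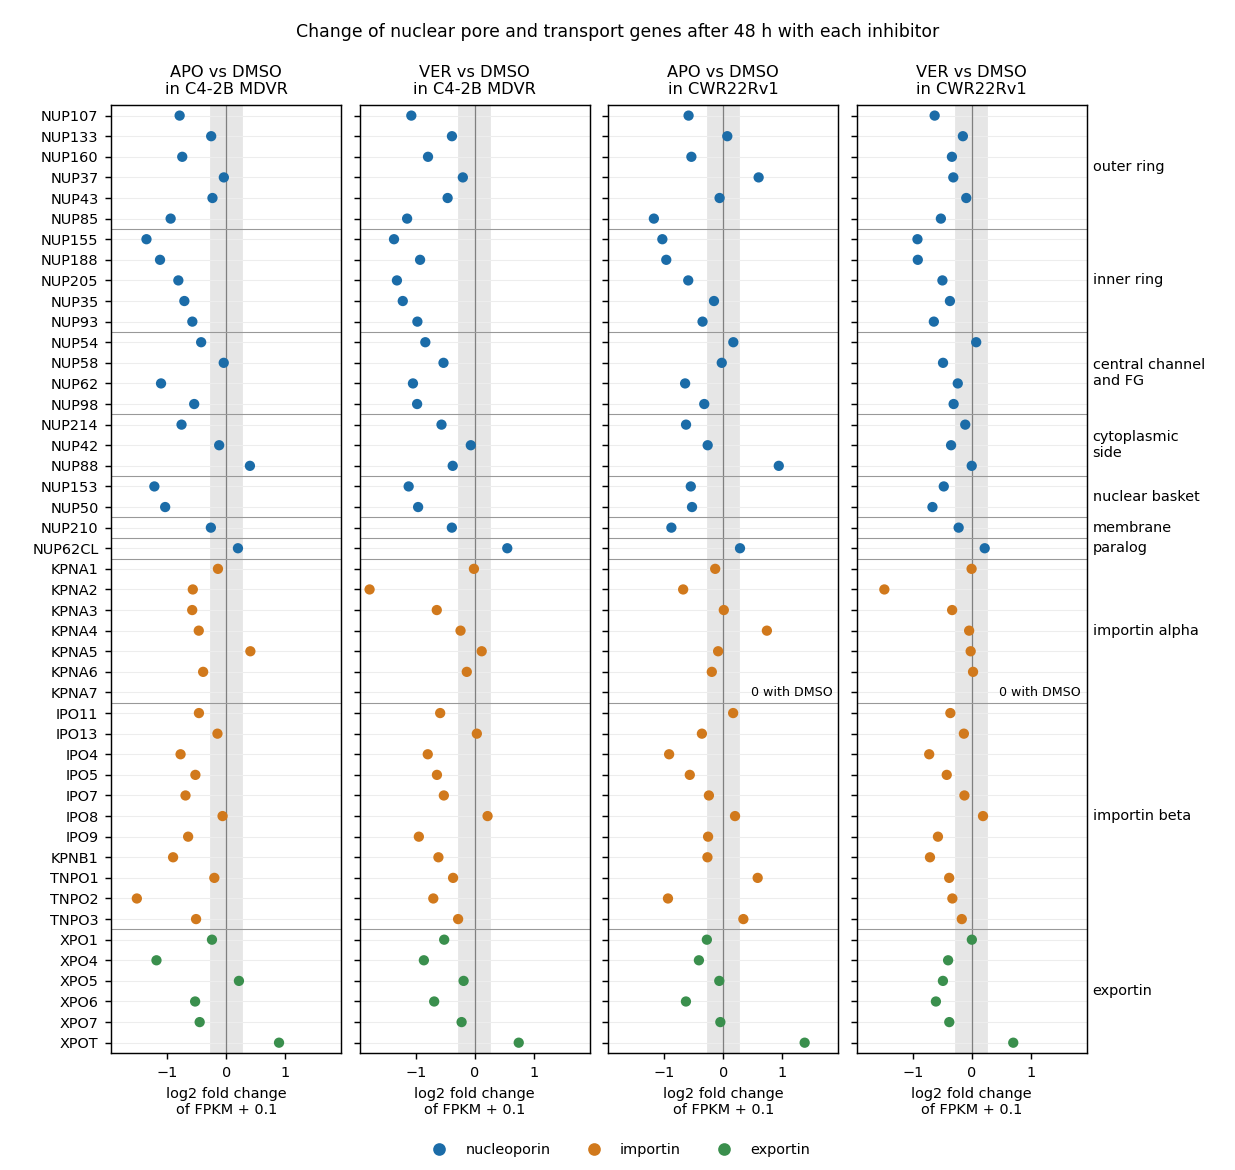
Log2 fold change against DMSO (horizontal axis) of each member (rows, coloured by class) with APO or VER in C4-2B MDVR and CWR22Rv1, 1 library per condition; the grey band spans the 1.2-fold threshold and there are no error bars. KPNA7, listed at 0 FPKM with DMSO in CWR22Rv1, carries no fold there. Most points lie left of the band, with medians from −0.59 to −0.26, and XPOT lies right of it in all 4 panels.

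The 3 classes differed in the share of members that fell, but no class led throughout. Importins had the largest share for APO in C4-2B MDVR (70.6%). Nucleoporins led for VER in that line (86.4%) and for APO in CWR22Rv1 (63.6%). Exportins, only 6 genes, led for VER in CWR22Rv1 (66.7%). Of all genes, 32.3% to 39.2% fell in these comparisons. Nucleoporins had C4-2B MDVR medians of −0.64 with APO and −0.88 with VER, with 14 and 19 of 22 down, and of −0.44 and −0.34 in CWR22Rv1, with 14 of 22 down in both. Importins had medians of −0.51 and −0.52 in C4-2B MDVR, with 12 and 11 of 17 down. In CWR22Rv1 their medians were −0.16 and −0.25. With APO 6 of 18 fell (33.3%, below the share of all genes) and 4 rose, KPNA7 included, and with VER 9 fell and 1 (KPNA7) was higher. KPNA7 is in these medians and among the 18, although it could not have fallen there. Without it the importin median with VER in CWR22Rv1 was −0.33. In C4-2B MDVR the exportin median was −0.35 with APO and −0.37 with VER, and 3 of 6 exportins fell with each inhibitor; in CWR22Rv1 3 of 6 fell with APO and 4 of 6 with VER, with medians of −0.17 and −0.39, the latter below that of the nucleoporins. Comparisons within a line share its DMSO library, so the APO and VER values of a line are given side by side and are not independent of each other.

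Windows from 250 bases before to 50 bases after the annotated start were available for 41 of the 47 members (53 windows, RefSeq, GRCh38.p14) and were searched on both strands for 4 motifs, none of whose matches in member windows overlapped each other. The E-box CACGTG, a palindrome bound by MYC and related factors, was in 7 of 53 member windows (13.2%). It was in 7.26% of all 35116 windows and in 8.34% of the 22199 windows of protein-coding genes. The CCAAT box was in 49.1% of member windows, 34.6% of all windows and 34.7% of protein-coding windows. Of the 2 E2F-type motifs, TTTCCCGC was in 0% of member windows, 1.63% of all windows and 1.99% of protein-coding windows. TTTGGCGC was in 1.89% (NUP155), 0.652% and 0.815%. For 4 of the members that changed in the same direction in all 4 comparisons with DMSO, the upstream stretch is printed on the strand of the gene, 5′ to 3′. Other such members with matches, among them KPNA2 (CCAAT) and IPO4 (CACGTG), are not printed. Each printed stretch is the part of the 150 bases before the RefSeq start that no exon of GENCODE 29 covers. GENCODE starts can lie further upstream than the RefSeq start. Capitals mark CACGTG in NUP188 (chr9:128947620-128947698, plus strand) and CCAAT in NUP205 (chr7:135557767-135557916, plus strand). The stretches of NUP155 (chr5:37371182-37371256, minus strand), which fell in all 4 comparisons with DMSO as NUP188 and NUP205 did, and of XPOT (chr12:64404242-64404349, plus strand), which rose in all 4, held none of the 4 motifs.
NUP188: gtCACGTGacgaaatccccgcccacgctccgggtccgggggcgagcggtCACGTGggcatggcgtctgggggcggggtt
NUP155: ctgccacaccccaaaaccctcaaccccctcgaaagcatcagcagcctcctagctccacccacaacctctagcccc
NUP205: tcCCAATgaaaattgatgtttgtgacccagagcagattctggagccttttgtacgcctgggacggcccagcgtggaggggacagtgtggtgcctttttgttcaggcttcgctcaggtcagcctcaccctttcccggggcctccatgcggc
XPOT: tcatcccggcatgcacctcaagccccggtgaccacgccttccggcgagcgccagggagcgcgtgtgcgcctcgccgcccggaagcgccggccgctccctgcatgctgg

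Nearly all members of the inner ring, the part of the scaffold that lines the channel and anchors it to the membrane, fell in each comparison with DMSO. All 5 of its members (NUP35, NUP93, NUP155, NUP188, NUP205) fell in C4-2B MDVR, with medians of −0.81 for APO and −1.22 for VER. In CWR22Rv1 4 of 5 fell with APO (median −0.59) and 5 of 5 with VER (median −0.64). Of all genes, 35.4% and 34.9% fell in C4-2B MDVR, and 39.2% and 32.3% in CWR22Rv1. NUP155 (ENSG00000113569, GRCh38 chromosome 5, 37288137 to 37371181, minus strand), a linker of inner ring and membrane, was at 24.4 FPKM in the DMSO, 9.5 in the APO and 9.39 in the VER library of C4-2B MDVR, and at 29, 14.1 and 15.3 FPKM in CWR22Rv1. Both DMSO libraries were above all 4 inhibitor libraries, and the log2 fold changes were −1.35 and −1.37 in C4-2B MDVR and −1.03 and −0.92 in CWR22Rv1. NUP188 (ENSG00000095319, chromosome 9, 128947699 to 129007096, plus strand), a large scaffold subunit, was at 38.5, 17.6 and 20.2 FPKM in C4-2B MDVR and at 42.5, 21.7 and 22.5 FPKM in CWR22Rv1 with DMSO, APO and VER. Its inhibitor libraries again lay below both DMSO libraries, by −1.12 and −0.93 on the log2 scale in C4-2B MDVR and −0.97 and −0.91 in CWR22Rv1. NUP205, the paralogous scaffold subunit, was the highest nucleoporin in the C4-2B MDVR DMSO library at 48.7 FPKM and was at 27.7 with APO and 19.5 with VER, with 66.3, 43.9 and 46.9 FPKM in CWR22Rv1. NUP205 changed most with VER in C4-2B MDVR (log2 fold change −1.32) and least with VER in CWR22Rv1 (−0.50). NUP35 with APO in CWR22Rv1, at −0.16, was the single inner ring value within 1.2-fold.

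The outer ring, or Y complex, coats the faces of the pore and also works at kinetochores in mitosis. Of its 6 members counted here, C4-2B MDVR had 3 fall with APO and 5 with VER. In CWR22Rv1 3 fell and 1 rose with APO, and 4 fell with VER. The shares that fell were 50.0% and 83.3% in C4-2B MDVR, against 35.4% and 34.9% of all genes. In CWR22Rv1 they were 50.0% and 66.7%, against 39.2% and 32.3%. NUP85 (ENSG00000125450, chromosome 17, 75205659 to 75235758, plus strand), a scaffold subunit of the Y complex, was at 38.1, 19.8 and 17.1 FPKM with DMSO, APO and VER in C4-2B MDVR. In CWR22Rv1 it was at 45.5, 20.1 and 31.6 FPKM, and its change with APO there, −1.18, was the lowest of all members in that comparison. NUP107, another Y complex scaffold protein, was the highest nucleoporin in the CWR22Rv1 DMSO library at 75.8 FPKM, was at 50.4 with APO and 49.0 with VER, and was at 41.6, 24.0 and 19.7 FPKM in C4-2B MDVR. NUP37, a peripheral Y complex subunit, was the outer ring member that rose with APO in CWR22Rv1. It was at 43.6 FPKM with DMSO, 66.2 with APO and 35.1 with VER there (log2 fold changes 0.60 and −0.31), and at 30.7, 29.8 and 26.7 FPKM in C4-2B MDVR, within 1.2-fold of DMSO.

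Among the 4 FG nucleoporins of the central channel, which form the selective barrier, in C4-2B MDVR 3 fell with APO and 4 with VER, and 2 fell with each inhibitor in CWR22Rv1. These are 75.0% and 100% in C4-2B MDVR, where 35.4% and 34.9% of all genes fell. In CWR22Rv1 the share was 50.0% with each inhibitor, closer to the 39.2% and 32.3% of all genes. NUP62 (ENSG00000213024, chromosome 19, 49906825 to 49929763, minus strand), whose FG repeats bind importin beta, was at 43.0, 19.9 and 20.8 FPKM in C4-2B MDVR and at 51.0, 32.5 and 43.2 FPKM in CWR22Rv1 with DMSO, APO and VER. It changed by −1.10 and −1.05 in C4-2B MDVR and by −0.65 with APO in CWR22Rv1, while VER in CWR22Rv1 left it at −0.24, within the threshold. The gene ATF5 overlaps NUP62 on the opposite strand and was at 44.2, 47.8 and 58.1 FPKM in C4-2B MDVR and at 61.0, 30.4 and 67.6 FPKM in CWR22Rv1. NUP98 (ENSG00000110713, chromosome 11, 3671083 to 3797792, minus strand), which carries GLFG repeats and is made from a shared precursor with NUP96, was at 39.8, 27.3 and 20.2 FPKM in C4-2B MDVR and at 28.3, 22.6 and 22.8 FPKM in CWR22Rv1. NUP98 fell in all 4 comparisons, by 0.54, 0.98, 0.32 and 0.31 on the log2 scale, and the CWR22Rv1 values were close to the threshold: −0.21 with APO when values were rescaled to the same sum, and −0.26 with VER when rescaled to a median ratio of 1.

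Both members of the nuclear basket, only 2 genes, fell in all 4 comparisons, in which 32.3% to 39.2% of all genes fell. NUP50, a basket protein that helps release importin alpha cargo, was at 48.6 FPKM in the DMSO, 23.7 in the APO and 24.9 in the VER library of C4-2B MDVR, and at 45.7, 31.7 and 28.8 FPKM in CWR22Rv1. Its log2 fold changes were −1.03 and −0.96 in C4-2B MDVR and −0.53 and −0.67 in CWR22Rv1, with both DMSO libraries above the 4 inhibitor libraries. NUP153, which tethers the basket to the ring, was at 25.1, 10.7 and 11.5 FPKM in C4-2B MDVR and at 23.2, 15.8 and 16.6 FPKM in CWR22Rv1. NUP153 changed by −1.22 and −1.12 in C4-2B MDVR and by −0.55 and −0.47 in CWR22Rv1.

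On the cytoplasmic side the direction was mixed, and NUP88 was the nucleoporin that rose with APO in both lines. NUP88 (ENSG00000108559, chromosome 17, 5360963 to 5420160, minus strand), which anchors NUP214 and binds the export receptor XPO1 through it, was at 42.2 FPKM in the DMSO, 55.8 in the APO and 32.6 in the VER library of C4-2B MDVR. In CWR22Rv1 it was at 20.4, 39.2 and 20.3 FPKM. Within each line the APO library was the highest. The log2 fold changes with APO were 0.40 in C4-2B MDVR and 0.94 in CWR22Rv1, and those with VER were −0.37 and 0.00. The C4-2B MDVR change with APO was 0.25 after rescaling to the same sum, under the threshold. RPAIN, which encodes a nuclear importer of replication protein A and overlaps NUP88 on the opposite strand, was at 45.4, 66.1 and 43.2 FPKM in C4-2B MDVR and at 17.0, 23.8 and 16.9 FPKM in CWR22Rv1, so its APO library was also the highest of each line. RABEP1, which overlaps NUP88 on the opposite strand too, was at 26.8, 28.2 and 25.2 FPKM in C4-2B MDVR. In CWR22Rv1 RABEP1 was at 49.1, 40.7 and 41.5 FPKM, with the APO library the lowest. NUP214, the partner of NUP88, fell in 3 comparisons and was at −0.11 with VER in CWR22Rv1. NUP42 was within 1.2-fold in C4-2B MDVR and at −0.26 and −0.35 in CWR22Rv1. The membrane nucleoporin NUP210 was the highest nucleoporin in both VER libraries (35.3 and 60.1 FPKM). It changed most with APO in CWR22Rv1, from 70.2 to 38.1 FPKM (−0.88). Of the paralogs, NUP210L was listed at 0 in all 6 libraries, and NUP62CL was at 4.45, 5.12 and 6.57 FPKM in C4-2B MDVR and 12.7, 15.5 and 14.8 FPKM in CWR22Rv1. NUP62CL rose with VER in C4-2B MDVR (0.55) and with APO in CWR22Rv1 (0.28, or 0.13 when mitochondrial genes were left out of the scaling).

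In the importin alpha family, KPNA7 aside, the highest level and the largest change with VER were those of KPNA2, the adaptor that is known to be high in dividing cells. KPNA2 (ENSG00000182481, chromosome 17, 68035519 to 68046842, plus strand) was at 166 FPKM in the DMSO, 112 in the APO and 48.2 in the VER library of C4-2B MDVR, and at 99.3, 62 and 35.5 FPKM in CWR22Rv1. The order DMSO, APO, VER held in both lines, with log2 fold changes of −0.57 and −1.78 in C4-2B MDVR and −0.68 and −1.48 in CWR22Rv1. With VER it was the member that fell most in both lines. KPNA2 made up 60.6% of the summed FPKM of the family in C4-2B MDVR with DMSO, 56.2% after APO and 33.3% after VER, and 60.1%, 46.3% and 35.9% in CWR22Rv1. The family sum itself was 273.7, 199.6 and 144.9 FPKM in C4-2B MDVR and 165.3, 133.9 and 99.0 FPKM in CWR22Rv1. With VER the other alpha importins but KPNA7 moved less than KPNA2, while with APO KPNA3 in C4-2B MDVR (−0.58) and KPNA4 in CWR22Rv1 moved slightly more. Without KPNA7, their log2 fold changes against DMSO ran from −0.64 (KPNA3 with VER in C4-2B MDVR) to 0.74 (KPNA4 with APO in CWR22Rv1). KPNA1 stayed within 1.2-fold of DMSO in all 4 comparisons.

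**Figure D2:**
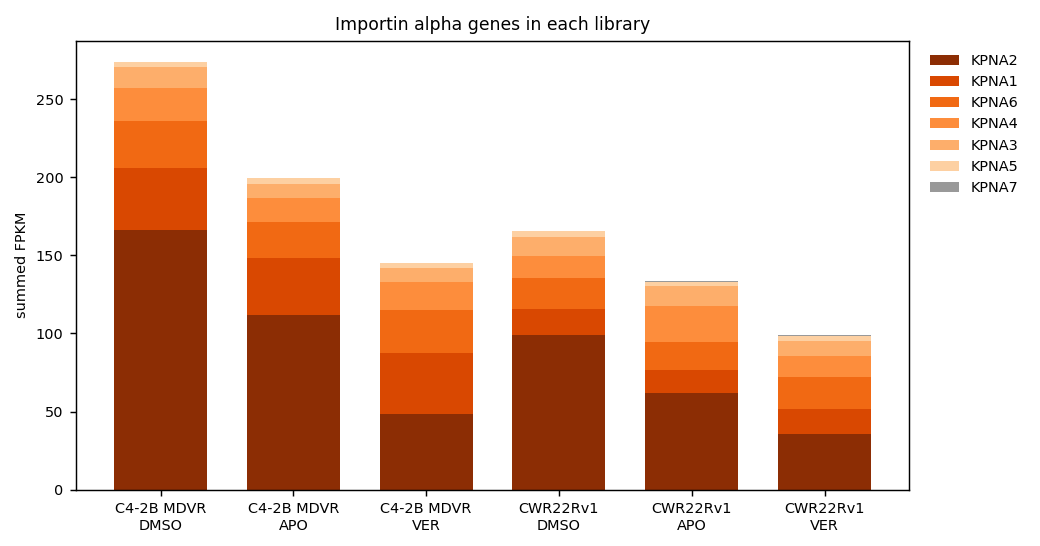
FPKM of the importin alpha genes stacked in each of the 6 libraries, 1 library per bar with no error bars. The KPNA2 segment shrinks from 166 FPKM with DMSO to 48.2 with VER in C4-2B MDVR and from 99.3 to 35.5 in CWR22Rv1.

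KPNA4 and the beta importin TNPO3 changed in opposite directions in the 2 lines with APO. KPNA4 (ENSG00000186432, chromosome 3, 160494995 to 160565588, minus strand), an alpha adaptor, was at 21.1 FPKM in the DMSO, 15.2 in the APO and 17.8 in the VER library of C4-2B MDVR and at 13.9, 23.2 and 13.4 FPKM in CWR22Rv1. Its APO library was thus the lowest of the line in C4-2B MDVR (−0.47) and the highest in CWR22Rv1 (0.74). TNPO3 (ENSG00000064419, chromosome 7, 128954180 to 129055173, minus strand), the importer of serine-arginine rich splicing factors, was at 37.4, 26.2 and 30.8 FPKM in C4-2B MDVR and at 28.1, 35.7 and 25.0 FPKM in CWR22Rv1. Its APO changes were −0.51 and 0.34, and the CWR22Rv1 value was 0.19 when mitochondrial genes were left out of the scaling. KPNA5 rose with APO in C4-2B MDVR, from 2.93 to 3.92 FPKM (0.41), and was at 3.19 with VER and at 3.30, 3.10 and 3.26 FPKM in CWR22Rv1. KPNA7, an alpha importin known mainly from oocytes and embryos, was listed at 0.0419, 0.0529 and 0 FPKM in C4-2B MDVR, below the filter, and at 0, 0.703 and 0.332 FPKM in CWR22Rv1. No fold is given for it against a library listed at 0, although it counts among the members above DMSO in CWR22Rv1.

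Of the 11 beta importins, in C4-2B MDVR 8 fell with APO and 9 with VER, and in CWR22Rv1 5 fell and 2 rose with APO and 7 fell with VER. The shares that fell were 72.7% and 81.8% in C4-2B MDVR, against 35.4% and 34.9% of all genes. In CWR22Rv1 they were 45.5% with APO, near the 39.2% of all genes, and 63.6% with VER, against 32.3%. KPNB1 (ENSG00000108424, chromosome 17, 47649476 to 47685505, plus strand), the carrier shared by the alpha adaptors, was at 190.3 FPKM in the DMSO, 102 in the APO and 124 in the VER library of C4-2B MDVR. In CWR22Rv1 it was at 110.1, 91.4 and 67.4 FPKM. It was the highest importin in 5 of the 6 libraries, the exception being the C4-2B MDVR APO library, where KPNA2 was higher. KPNB1 changed by −0.90 and −0.62 in C4-2B MDVR and by −0.27 and −0.71 in CWR22Rv1; the change with APO in CWR22Rv1 was −0.15 after rescaling to the same sum. TNPO2 (ENSG00000105576, chromosome 19, 12699194 to 12724011, minus strand), a transportin that imports RNA-binding proteins, had the lowest value of any member with APO in C4-2B MDVR. It was at 48.4 FPKM in the DMSO, 16.9 in the APO and 29.7 in the VER library of C4-2B MDVR and at 54.5, 28.4 and 43.4 FPKM in CWR22Rv1. APO was below VER and VER below DMSO in both lines, with log2 fold changes of −1.51 and −0.70 in C4-2B MDVR and −0.94 and −0.33 in CWR22Rv1. IPO4 (ENSG00000196497, chromosome 14, 24180219 to 24188964, minus strand), an importer of histones and ribosomal proteins, was at 37.1, 21.7 and 21.3 FPKM in C4-2B MDVR and at 30.1, 15.9 and 18.2 FPKM in CWR22Rv1. IPO4 changed by −0.77 and −0.80 in C4-2B MDVR and by −0.92 and −0.72 in CWR22Rv1. IPO8 was at 18.7, 17.9 and 21.8 FPKM in C4-2B MDVR and at 16.4, 18.9 and 18.7 FPKM in CWR22Rv1, and was not past 1.2-fold in any of the 4 comparisons with DMSO. TNPO1 rose with APO in CWR22Rv1 (28.8 to 43.2 FPKM, 0.58) and fell with VER in both lines (−0.37 and −0.38).

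Among the exportins, XPOT rose in all 4 comparisons with DMSO. XPOT (ENSG00000184575, chromosome 12, 64404350 to 64451127, plus strand), which exports mature transfer RNAs, was at 94.5 FPKM in the DMSO, 176 in the APO and 158 in the VER library of C4-2B MDVR, and at 70.0, 182 and 114 FPKM in CWR22Rv1. Its 4 inhibitor libraries lay above both DMSO libraries. The log2 fold changes were 0.90 and 0.75 in C4-2B MDVR and 1.38 and 0.70 in CWR22Rv1, at the 86.3, 84.0, 94.4 and 89.1 percentiles of the protein-coding genes compared. XPOT took 29.2%, 49.4% and 49.6% of the summed exportin FPKM in C4-2B MDVR and 23.4%, 49.0% and 37.1% in CWR22Rv1. XPO1 (ENSG00000082898, chromosome 2, 61477849 to 61538626, minus strand), the exporter of proteins with leucine-rich export signals, was at 72.2, 61.1 and 50.4 FPKM in C4-2B MDVR and at 103, 85.3 and 103 FPKM in CWR22Rv1. XPO1 fell with VER in C4-2B MDVR (−0.52) and with APO in CWR22Rv1 (−0.28, or −0.16 after rescaling to the same sum), and was at −0.24 and 0.00 in the other 2 comparisons. XPO4 was the lowest exportin in every library, at 9.04, 3.93 and 4.93 FPKM in C4-2B MDVR and at 7.39, 5.53 and 5.58 FPKM in CWR22Rv1. XPO6, the exporter of actin and profilin, fell in all 4 comparisons (−0.53, −0.69, −0.63 and −0.61).

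**Figure D3:**
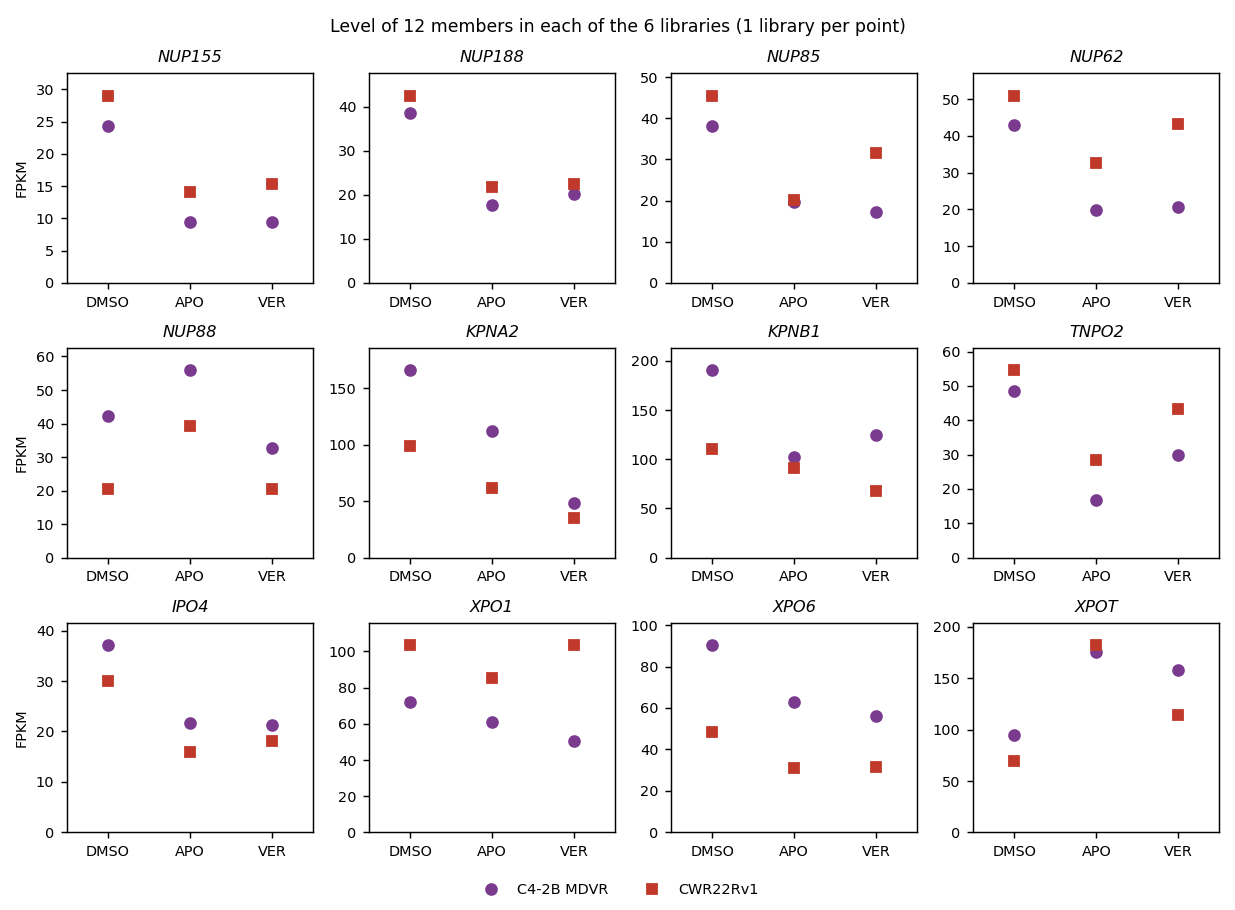
FPKM (linear axes from 0) of 12 members by treatment, 1 point per library with no error bars, circles for C4-2B MDVR and squares for CWR22Rv1. The DMSO points of NUP155, NUP188, NUP85, NUP62, KPNA2, KPNB1, TNPO2, IPO4 and XPO6 lie above the inhibitor points of the same line, and those of XPOT lie below them.

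The sums show the classes beside each other. Nucleoporins summed to 708 FPKM in the DMSO, 495 in the APO and 422 in the VER library of C4-2B MDVR and to 782, 618 and 595 FPKM in CWR22Rv1. Importins summed to 815, 535 and 521 FPKM in C4-2B MDVR and to 602, 498 and 428 FPKM in CWR22Rv1. Exportins, led by XPOT in the inhibitor libraries, summed to 323, 356 and 319 FPKM in C4-2B MDVR and to 299, 372 and 307 FPKM in CWR22Rv1. Both inhibitors were thus below DMSO for nucleoporins and importins in each line, and the exportin sum was highest with APO. That sum was carried by XPOT, at 94.5, 176 and 158 FPKM in C4-2B MDVR and 70.0, 182 and 114 FPKM in CWR22Rv1. The median exportin level was below DMSO with both inhibitors, at 52.8, 44.4 and 39.5 FPKM in C4-2B MDVR. In CWR22Rv1 the median level was 47.7, 38.3 and 33.9 FPKM.

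The same inhibitor in the 2 lines gives comparisons that share no library. With APO, 19 of 45 members fell in both lines (42.2%), which is 65.5% of the C4-2B MDVR list and 82.6% of the CWR22Rv1 list, while 21.6% of the 18059 genes compared in both lines fell in both. With APO, 2 members rose in both lines, XPOT and NUP88 (4.44%, against 21.3% of all genes). With VER, 23 members fell in both lines (51.1%, against 18.2% of all genes), 69.7% of the C4-2B MDVR list and 85.2% of the CWR22Rv1 list. XPOT was the member that rose with VER in both lines (2.22%, against 17.9%). Ordered by the smaller of the 2 changes, NUP155, NUP188, NUP85, TNPO2 and IPO4 led the members that fell with APO, and KPNA2, NUP155, NUP188, IPO4 and NUP50 those that fell with VER.

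**Figure D4:**
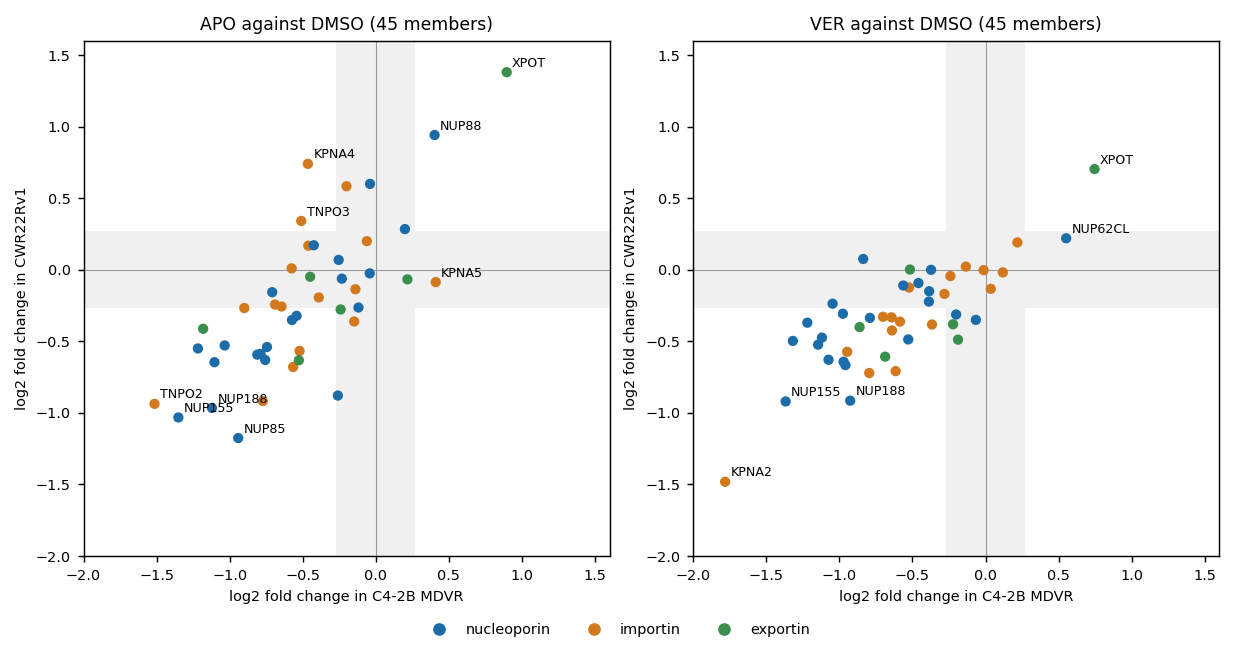
Log2 fold change against DMSO in C4-2B MDVR (horizontal axis) and in CWR22Rv1 (vertical axis) of the 45 members compared in both, for APO (left) and VER (right), 1 library per condition; grey bands span the 1.2-fold threshold. Most points lie in the lower left quadrant, where 19 members with APO and 23 with VER are past the threshold in both lines; XPOT lies at the upper right in both panels and KPNA4 and TNPO3 at the upper left with APO.

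Set directly against each other on the values without rescaling, the 2 inhibitors left 27 of 45 members within 1.2-fold in C4-2B MDVR. In CWR22Rv1 24 of 46 were within it, and the counts depended on the scaling. In C4-2B MDVR, 13 of 45 members were lower with VER than with APO and 5 were higher, against 32.5% and 28.5% of all genes, with a member median of −0.12. Rescaled to the same sum this turned to 7 lower and 14 higher, and with mitochondrial genes left out of the sum to 5 lower and 15 higher. Shares of all genes under these scalings were not computed for either line. In CWR22Rv1, 16 of 46 were lower and 6 higher, against 34.5% and 37.3% of all genes, with a median of −0.04; the counts were 21 and 4 rescaled to the same sum and 12 and 10 with mitochondrial genes left out. In both lines 6 members were lower with VER (13.3%, against 15.1% of all genes): KPNA2, NUP88, NUP58, XPO5, IPO9 and NUP93. KPNA2 had VER against APO values of −1.22 in C4-2B MDVR and −0.80 in CWR22Rv1, and NUP88 had −0.77 and −0.94. TNPO2 was the member that was higher with VER in both lines, at 0.81 and 0.61 (2.22%, against 14.6% of all genes). Both counts in both lines were near or below the shares over all genes.

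Between the DMSO libraries, 10 of 45 members were higher in CWR22Rv1 and 18 were higher in C4-2B MDVR, against 43.2% and 39.2% of the 20903 genes compared. With mitochondrial genes left out of the scaling, 18 were higher in CWR22Rv1 and 15 in C4-2B MDVR, and the shares of all genes were not computed. C4-2B MDVR cells were maintained with enzalutamide and CWR22Rv1 cells were not, so line and culture history cannot be told apart; whether enzalutamide was present during the 48 h of treatment is not stated. Nucleoporins had a median difference of 0.17, with 6 of 22 higher and 4 lower in CWR22Rv1, and importins of −0.41, with 2 of 17 higher and 11 lower. The adaptor KPNA1 was at 39.7 FPKM in C4-2B MDVR and 16.4 in CWR22Rv1 (−1.27), and this difference was kept with either inhibitor (36.0 and 39.4 against 14.9 and 16.4 FPKM). NUP88 (−1.05), NUP93 (−0.95) and XPO6 (−0.90) were also lower in CWR22Rv1, and NUP62CL (1.49) and NUP107 (0.87) were higher. No order of neighbouring levels within a library could be judged, since no library was repeated.

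Other genes of the pathway, which the naming rule leaves out, were counted from a list of 26. Of these, 17 fell and 3 rose with APO in C4-2B MDVR, 20 fell and 2 rose with VER in C4-2B MDVR, 12 fell and 6 rose with APO in CWR22Rv1, and 11 fell and 1 rose with VER in CWR22Rv1, with medians of −0.49, −0.54, −0.25 and −0.18. The shares that fell were 65.4% and 76.9% in C4-2B MDVR, against 35.4% and 34.9% of all genes, and in CWR22Rv1 they were closer to the background, at 46.2% and 42.3% against 39.2% and 32.3%. Among the 15 genes of the Ran cycle and further carriers, 11, 11, 7 and 8 fell (73.3%, 73.3%, 46.7% and 53.3%). In the same order 2, 1, 4 and 1 rose (13.3%, 6.67%, 26.7% and 6.67%), against 37.7%, 35.6%, 35.6% and 32.1% of all genes. The GTPase RAN was at 350 FPKM in the DMSO, 252 in the APO and 178 in the VER library of C4-2B MDVR and at 317, 240.0 and 190.2 FPKM in CWR22Rv1 (−0.47, −0.98, −0.40 and −0.74). RCC1, the nucleotide exchange factor that loads Ran with GTP, was at 60.9, 23.8 and 19.6 FPKM in C4-2B MDVR and at 54.8, 33.9 and 23.5 FPKM in CWR22Rv1. CSE1L, the exportin that returns importin alpha to the cytoplasm, was at 142, 66.0 and 51.8 FPKM in C4-2B MDVR and at 88.3, 69.9 and 57.1 FPKM in CWR22Rv1. In RAN, RCC1 and CSE1L the VER library was the lowest and the DMSO library the highest of each line, the order seen for KPNA2. Not all of the 15 followed it: RANBP17 changed by 0.40, 0.03, 0.34 and 0.70 and DDX19B by 0.57, 0.62, 0.87 and −0.48. Among the 11 further pore subunits 6, 9, 5 and 3 fell (54.5%, 81.8%, 45.5% and 27.3%), the last share being below that of all genes. SEC13, shared with vesicle coats, rose in the first 3 of the comparisons (0.62, 0.51 and 0.48) and was at −0.13 with VER in CWR22Rv1.

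Proliferation markers (MKI67, TOP2A, PCNA, MCM2, CDK1, CCNB1) moved in the same libraries. All 6 fell in each comparison with DMSO but APO in CWR22Rv1, where 5 fell, while 32.3% to 39.2% of all genes fell. Their summed level was 829 FPKM in the DMSO, 277 in the APO and 152 in the VER library of C4-2B MDVR and 619, 327 and 358 FPKM in CWR22Rv1. Their part in the member values was not tested.

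Of the 47 members, 18 overlap another coding or antisense gene, 5 of them a coding gene on the same strand, and reads of overlapping genes may be shared between them. Pseudogenes of 9 members were listed, 17 in all, of which 2 exceeded 1 FPKM in any library: IPO5P1, at 4.89 to 12.8 FPKM beside 33.9 to 73.4 FPKM for IPO5, and KPNA2P3, at most 1.2 FPKM.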

How the data were processed

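RNA was sequenced from 6 libraries, 1 per line and treatment, after poly-A selection. Per the labels the authors aligned reads with HISAT to GRCh38 and computed FPKM with Cufflinks, normalized across libraries with Cuffnorm (versions not given in the sources used here); the kit is given as stranded, and whether counting used strand is not given. The deposited FPKM values carry no counts, so absolute depth is unknown, and the precision of low values could not be given. GENCODE 29 supplied names and positions; NUP42 is NUPL2 there and was matched by its current symbol. Values were handled as log2(FPKM + 0.1) after a filter of 0.1 FPKM, with a 1.2-fold threshold, in Python 3.11.15 (pandas 2.3.3, numpy 2.4.6, matplotlib 3.10.9). The calls were run on a copied library in which known fold changes had been set without noise. That checks the arithmetic only and cannot show how often calls between single libraries are wrong. The log2(FPKM + 0.1) scale understates changes of low genes. Samples were grouped by their titles; other label fields name the parental line for C4-2B MDVR. The members and lists were chosen with earlier results of these data known. Every member could be named. All 6 values were given for the 5 largest changes shared by the lines and the 3 largest in each direction per comparison with DMSO. They were also given for members with opposite changes in the lines, XPO1, KPNB1, KPNA2, NUP98, NUP62 and the highest and lowest levels. A few others were chosen after their values were seen, with all 6 values for NUP37 and KPNA1 and fewer for NUP210 and TNPO1. Alternatives were other pseudocounts, filters, scalings and thresholds. Protein features were not analysed here.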

Additional observations from a re-analysis of the deposited data

Results flagged for a closer look

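With APO, 2 members changed in opposite directions in the 2 lines, each line against its own DMSO library; the difference between the lines was not tested, since each condition was 1 library. KPNA4 changed by −0.47 on the log2 scale in C4-2B MDVR and by 0.74 in CWR22Rv1, and over all alternative filters, pseudocounts and scalings the values ran from −0.63 to −0.44 and from 0.59 to 0.86. TNPO3 changed by −0.51 in C4-2B MDVR and by 0.34 in CWR22Rv1, with ranges of −0.67 to −0.50 and 0.19 to 0.46, so that its rise in CWR22Rv1 was under 1.2-fold when mitochondrial genes were left out of the scaling.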

How the results depend on the processing

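No paired analysis was possible because each condition was 1 library, and for the same reason no replicate could be left out. No class median past 1.2-fold changed sign under any alternative; for VER against APO, medians near 0 did (nucleoporins −0.15 to 0.03 and exportins −0.16 to 0.02 in C4-2B MDVR, nucleoporins −0.22 to 0.05 in CWR22Rv1). Filters of 0.1 FPKM in every library or of 1 FPKM drop KPNA7: VER in CWR22Rv1 then had 1 member up and an importin median of −0.33. Scaling to a median ratio of 1 gave 2 members up with VER in both lines and 2 higher with VER than APO in both. Over genes above 1 FPKM, scaling to the same sum shifted the median from 0.02 to −0.12 for APO in C4-2B MDVR, from −0.03 to 0.11 and from −0.02 to −0.20 for VER against APO in C4-2B MDVR and CWR22Rv1. It gave importin medians of −0.31 for VER in CWR22Rv1, 0.27 and −0.34 for VER against APO in C4-2B MDVR and CWR22Rv1, an exportin median of −0.34 for the latter, 14 up and 7 down for VER against APO in C4-2B MDVR, 1 up with APO in both lines and 2 higher with VER than APO in both. Leaving mitochondrial genes out of the sum shifted that median to −0.14 for APO in C4-2B MDVR and −0.16 for APO in CWR22Rv1. It gave 1 up with APO in C4-2B MDVR, importin and exportin medians of −0.32 and −0.33 for APO in CWR22Rv1, an importin median of −0.31 for VER in CWR22Rv1, 15 up, 5 down and an importin median of 0.30 for VER against APO in C4-2B MDVR, 10 up for VER against APO in CWR22Rv1, 18 up and a nucleoporin median of 0.30 for CWR22Rv1 against C4-2B MDVR, 1 up with APO in both lines, and 4 higher and 3 lower with VER than APO in both.

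A threshold of 1.5-fold left 1 up and 17 down with APO and 1 up with VER in C4-2B MDVR, 5 up and 12 down with APO and 9 down with VER in CWR22Rv1, 1 up and 2 down, and 3 up and 7 down, for VER against APO in the 2 lines, 4 up and 9 down between lines, 1 up and 9 down with APO and 9 down with VER in both lines, and 2 lower with VER than APO in both. A threshold of 2-fold left 0 up and 7 down with APO and 0 up and 8 down with VER in C4-2B MDVR, 2 up and 2 down with APO and 1 up and 1 down with VER in CWR22Rv1, 0 up and 1 down, and 0 up and 0 down, for VER against APO, 1 up and 2 down between lines, 0 up and 1 down with APO and 0 up and 1 down with VER in both lines, and 0 up and 0 down for VER against APO in both. These thresholds lower the counts by construction, and the cause of the other changes was not tested. KPNA7, listed at 0 FPKM with DMSO in CWR22Rv1, is among the members up there with APO at both thresholds. It was the 1 member up with VER in CWR22Rv1 at 2-fold. Its value against a library listed at 0 depends on the pseudocount, and it could not have fallen. Shares of all genes were computed only at 1.2-fold on values without rescaling. Counts under other thresholds or scalings therefore have no such share beside them.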
